A study of Mus musculus with 20 samples.

Results

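The miR-290 to miR-295 cluster was followed in liver small RNA libraries from 5 PiZ and 5 wild-type (WT) mice. Its members were chosen by name: every miRNA named miR-290, miR-290a, miR-290b, miR-291a, miR-291b, miR-292, miR-292a, miR-292b, miR-293, miR-294 or miR-295, with either arm or none. The files hold 12 such names among 1509 names in all, and none of the 12 is a joined name. The cluster was proposed with the PiZ and WT values of these livers known, in which miR-295-3p (mmu-miR-295-3p in the files) was higher in PiZ. The comparison of genotypes for these members is therefore given as a description, with no test. All mice were 6 weeks old and of strain C57BL/6. PiZ mice express from a transgene the human Z form of alpha-1 antitrypsin, which liver cells make and which misfolds and builds up in their endoplasmic reticulum; WT mice have no transgene. The sources used here do not give the transgene's promoter, the sex of the mice or whether the genotypes were littermates. Each mouse gave 1 library, sequenced in 2 technical runs that were summed, so the mouse is the replicate.

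The cluster is known as the main miRNA product of mouse embryonic stem cells and the early embryo. Its hairpins on the plus strand are cut from 1 primary transcript. Several of its 3p arms share a seed, the bases 2 to 8 that pair with target mRNAs, with the miR-302 family of the epiblast. miRNAs of this seed are known to promote the passage from G1 to S phase in stem cells, and the cluster is silenced as cells differentiate. Adult liver is not a tissue for which it is known.

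The sequences below show the seed that 3 of the member names share. They are the RefSeq mature forms (GRCm38.p6), written 5′ to 3′ with the seed in capitals. miR-295-3p, miR-294-3p and miR-291a-3p are members, miR-302b-3p and miR-302d-3p are the remaining miRNAs of the same seed in that table, miR-17-5p and miR-93-5p carry the seed moved by 1 base, and miR-292b-5p is a member from the opposite strand.
miR-295-3p: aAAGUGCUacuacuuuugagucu
miR-294-3p: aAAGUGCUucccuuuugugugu
miR-291a-3p: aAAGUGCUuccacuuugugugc
miR-302b-3p: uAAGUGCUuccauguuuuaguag
miR-302d-3p: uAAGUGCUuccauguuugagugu
miR-17-5p: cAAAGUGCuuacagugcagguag
miR-93-5p: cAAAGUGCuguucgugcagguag
miR-292b-5p: aCUCAAAAccuggcggcacuuuu
The seed of miR-295-3p was found in 5 of 1679 mature names (0.298%), and 3 of the 5, all of them members, had a read in these livers. Past the seed, miR-295-3p is not close to its relatives: the nearest mature sequence, miR-294-3p, is 5 edits (bases changed, added or lost) away, and the nearest outside the cluster, miR-302d-3p, is 6 edits away. Of the 12 names in the files, 11 matched the table.

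The cluster lies on chromosome 7, at chr7:3218626-3220841 in GRCm38.p6, a stretch of 2216 bases with 9 annotated hairpins. Its order on the plus strand is Mir290a, Mir291a, Mir292, Mir291b, Mir293, Mir294 and Mir295. Mir290b and Mir292b lie on the minus strand, inside the stretches of Mir290a and Mir292. GENCODE M21 places the 3′ UTR of Nlrp12, an innate immune receptor gene, over 7 of the 9 hairpins (chr7:3218784-3222475, minus strand), all but Mir290a and Mir290b. RefSeq lists the long noncoding RNA D7Ertd143e over the same 7 (chr7:3218784-3221015). The mature miR-295-3p lies at chr7:3220815-3220837 and miR-294-3p at chr7:3220691-3220712, both on the plus strand, and miR-292b-5p at chr7:3219237-3219259 on the minus strand. The sources used here do not say whether counting used strand, so reads of Mir292b and of the complementary Mir292 hairpin may not be told apart.

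Summed library totals ran from 1307857 to 10780801 reads. Levels are in CPM, reads per 1000000 reads of the library, and 1 read was worth between 0.0928 CPM (PiZ mouse 4) and 0.765 CPM (WT mouse 1). The files come in 2 sets with different lists of names, 1399 names for PiZ mice 1 and 2 and WT mice 1 to 3, and 990 names for PiZ mice 3 to 5 and WT mice 4 and 5. The libraries of the longer list were the shallower ones, at most 2507519 reads against at least 7043905. Libraries stood apart in places: over log2 CPM of 336 names, PiZ mouse 5 correlated best with WT mouse 5 (Pearson r = 0.99, across names, which are not independent) and lay with the WT mice on the first principal component, and WT mice 1 and 3 parted from the other WT mice on the second. Hepatocyte markers were read in every liver. miR-122-5p, miR-192-5p and miR-802-5p together had 123561 to 203748 CPM in PiZ mice and 58911 to 209241 CPM in WT mice, most of it miR-192-5p. miR-122-5p averaged 9479 ± 1711 CPM in PiZ mice against 13071 ± 1404 CPM in WT mice (SD, n = 5 each). miR-802-5p averaged 178 ± 151 CPM in PiZ mice against 63.3 ± 45.4 CPM in WT mice, with 13.8 CPM in WT mouse 3.

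The 12 names held 480 reads among 56646529, with 350 in the PiZ mice and 130 in the WT mice. miR-295-3p (222 reads in PiZ and 50 in WT mice), miR-292b-5p (64 and 62) and miR-294-3p (59 and 11) held 97.5% of them. The other 9 names had 12 reads between them. miR-292b-3p, the other arm of Mir292b, had 5 reads in 5 mice, and miR-293-3p had 3 reads in 3 mice. miR-290b-3p, miR-291a-3p, miR-291b-3p and miR-294-5p had 1 read each, in 1 mouse each. miR-290a-3p, miR-292-5p and miR-293-5p were listed at 0, in the 5 mice of the longer list alone, where the limit set by a count of 0, taken throughout as 3 reads, was 1.20 to 2.29 CPM by library. No other name of the cluster is listed, and such names were not analysed here. Most reads came from the last 2 hairpins of the plus strand and from Mir292b of the minus strand, as the map of reads by hairpin shows. For Mir290a and Mir292, with 1 name each that is listed in the shallow libraries alone, a level like that of Mir294 would lie near the limit of detection.

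**Figure D1:**
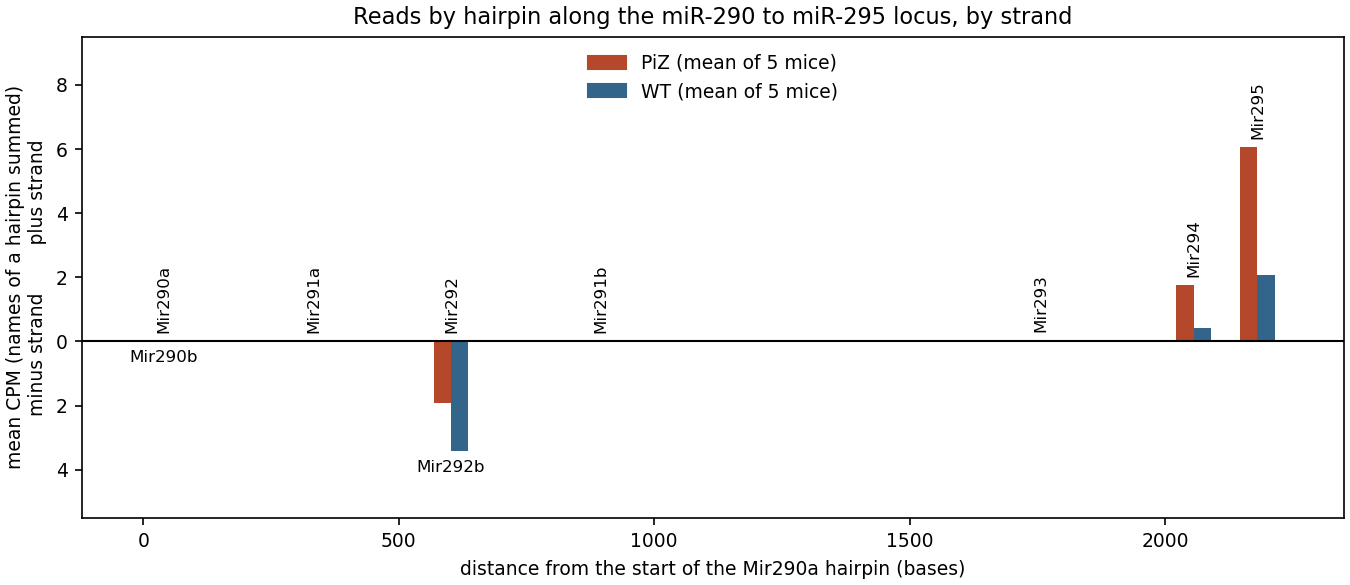
Mean level of each hairpin (reads per 1000000 library reads, arms summed, mean of 5 mice per genotype) against its distance in bases from the start of Mir290a, with plus-strand hairpins drawn upward and minus-strand hairpins downward. Mir295 and Mir294, at 6.05 and 1.77 CPM in PiZ mice, stand at the far end of the plus strand, Mir292b reaches 3.43 CPM in WT mice on the minus strand, and the other hairpins lie near 0. A name not listed for a mouse entered as 0. Mir290a and Mir292 were therefore read in the longer-list mice alone, and Mir291a and Mir291b in the shorter-list mice alone.

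miR-295-3p, the product of the last hairpin, was the most abundant member, with reads in 10 of 10 mice. Its reads in PiZ mice 1 to 5 were 18, 7, 90, 66 and 41, which are 7.40, 2.79, 9.76, 6.12 and 4.19 CPM. In WT mice 1 to 5 they were 2, 3, 4, 14 and 27, which are 1.53, 1.47, 2.62, 1.99 and 2.70 CPM. The PiZ mean of 6.05 ± 2.72 CPM was 2.94 times the WT mean of 2.06 ± 0.583 CPM (SD, n = 5 each). By library totals the 5 PiZ mice all lay above the 5 WT mice, as they did for 7.14% of the 336 names tested. The margin was small: PiZ mouse 2, with 7 reads, stood at 2.79 CPM (95% exact Poisson interval 1.12 to 5.75) and WT mouse 5, with 27 reads, at 2.70 CPM (1.78 to 3.92). With TMM or RLE scaling of the totals, which correct for composition, PiZ mouse 2 lay below WT mouse 5, and 4 of 5 PiZ mice lay above all WT mice; with TMM, 6.55% of the names tested had all PiZ above all WT mice. Such intervals cover counting error only, since reads are not independent molecules.

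In the fit across all 336 names, miR-295-3p had a log2 fold change of 1.42 (SE 0.36, edgeR). It was 1 of the 28 names called higher in PiZ in that fit, 8.33% of those tested, and because that contrast chose it, nothing is read from the call. Without PiZ mouse 1 the log2 fold change was 0.93 (SE 0.38), and without WT mice 1 and 3, the libraries named above, it was 1.41 (SE 0.42). Without PiZ mouse 5 it was 1.57 (SE 0.35). That mouse had 4.19 CPM of miR-295-3p, above each WT mouse and below PiZ mice 1, 3 and 4. Within the longer-list libraries the means were 5.09 CPM in 2 PiZ and 1.87 CPM in 3 WT mice, a ratio of 2.72, and within the shorter-list libraries 6.69 CPM in 3 PiZ and 2.34 CPM in 2 WT mice, a ratio of 2.86. The PiZ mean was the higher in both the shallow and the deep libraries, but miR-295-3p was chosen by these same values. The longer-list WT mean rests on 2, 3 and 4 reads in WT mice 1 to 3. Nothing is read from this split. In these bulk samples, more cells of a kind that makes a miRNA and more of it per cell cannot be told apart.

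miR-294-3p comes from the neighbouring hairpin and shares the seed. Its reads in PiZ mice 1 to 5 were 2, 7, 21, 14 and 15, which are 0.822, 2.79, 2.28, 1.30 and 1.53 CPM. In WT mice 1 to 5 they were 1, 0, 0, 7 and 3, which are 0.765, 0, 0, 0.994 and 0.300 CPM, and the limit of 3 reads set by a count of 0 was 1.47 CPM in WT mouse 2 and 1.97 CPM in WT mouse 3. The wider two-sided Poisson interval that is drawn for a 0 reaches 1.81 and 2.42 CPM there. The groups overlapped, with 4 of 5 PiZ mice higher than every WT mouse, and PiZ mouse 1 below WT mouse 4. PiZ mice averaged 1.74 ± 0.787 CPM and WT mice 0.412 ± 0.451 CPM (SD, n = 5 each). miR-294-3p did not pass the filter on low counts. In the fit without that filter its log2 fold change was 1.65 (SE 0.68, edgeR).

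The balance of these neighbours was taken as a share of their joint reads, free of library scaling, first pooled by genotype and then by mouse. miR-294-3p made up 21.0% of their joint reads in PiZ mice (59 of 281 reads, 95% exact binomial interval 16.4 to 26.2) and 18.0% in WT mice (11 of 61 reads, 9.36 to 30.0). The interval of the WT share holds the PiZ share. Both intervals count pooled reads and leave out the spread between mice, so they cannot decide whether the balance differed between genotypes. By mouse the share ran from 10% in PiZ mouse 1 to 50.0% in PiZ mouse 2, and from 0% in WT mice 2 and 3 to 33.3% in WT mice 1 and 4. PiZ mouse 2 had 7 reads of each, and its interval of 23.0 to 77.0% lay above the share in the pooled PiZ reads. For the arms of Mir294, 70 reads were of the 3p arm and 1 of the 5p arm, which is listed in the shorter list alone.

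miR-292b-5p, from the minus strand and with another seed, had no such values. In PiZ mice 1 to 5 it had 3, 6, 17, 21 and 17 reads, which are 1.23, 2.39, 1.84, 1.95 and 1.74 CPM. In WT mice 1 to 5 it had 5, 2, 10, 7 and 38 reads, which are 3.82, 0.980, 6.56, 0.994 and 3.80 CPM. The PiZ mice lay inside the range of the WT mice, 3 of which were above all PiZ mice and 2 below. PiZ mice averaged 1.83 ± 0.417 CPM and WT mice 3.23 ± 2.34 CPM (SD, n = 5 each), with a log2 fold change of -0.65 (SE 0.49, edgeR). Without WT mice 1 and 3 the log2 fold change was -0.27 (SE 0.51). The plot of the members by mouse sets the 3 patterns side by side.

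**Figure D2:**
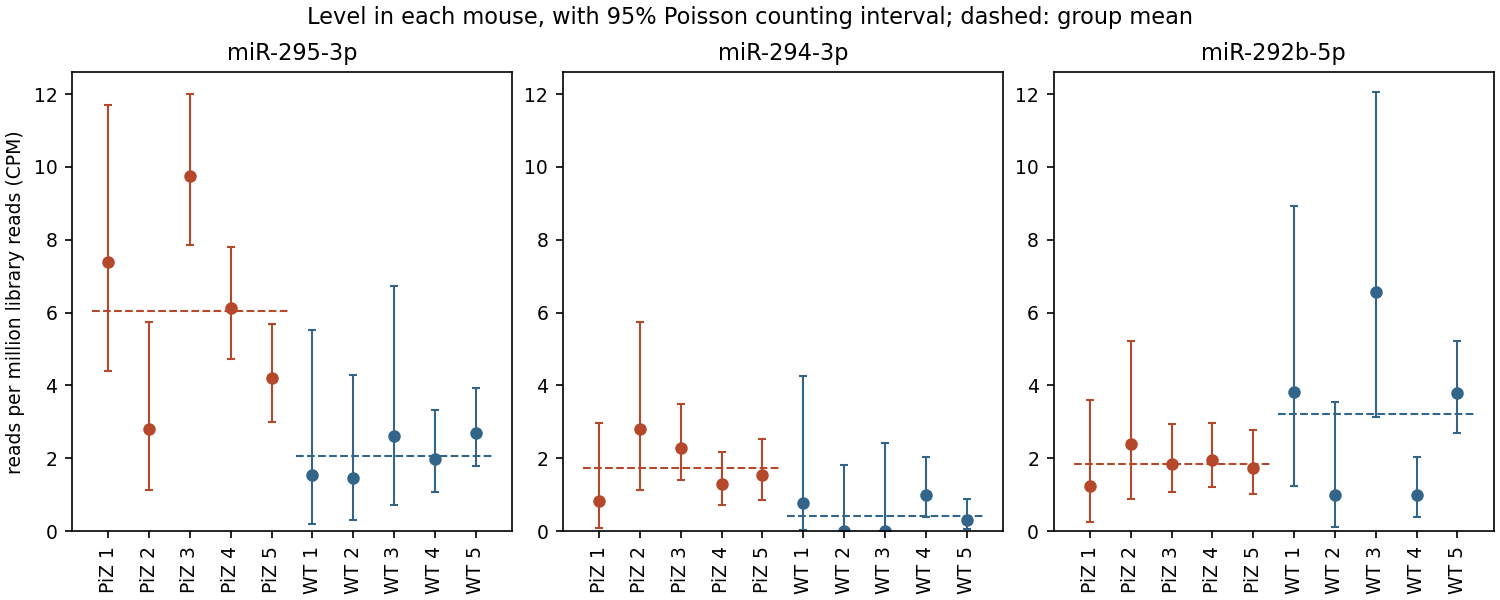
Level of miR-295-3p, miR-294-3p and miR-292b-5p in each mouse (reads per 1000000 library reads), with the 95% exact Poisson counting interval as a bar and the group mean as a dashed line. miR-295-3p spans 2.79 to 9.76 CPM in PiZ and 1.47 to 2.70 CPM in WT mice, while the PiZ points of miR-292b-5p lie within the spread of the WT points.

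Grouped by strand after the values were seen, names of the plus strand averaged 7.86 ± 2.64 CPM together in PiZ mice against 2.55 ± 0.716 CPM in WT mice (SD, n = 5 each). They ranged from 5.58 to 12.1 CPM in PiZ and from 1.47 to 3.27 CPM in WT mice. These ranges did not overlap, as for 7.14% of the single names tested, but miR-295-3p, chosen as higher in PiZ, gave 222 of the 284 PiZ reads, so nothing is read from it. Names of the minus strand averaged 1.93 ± 0.279 CPM together in PiZ mice against 3.46 ± 2.34 CPM in WT mice (SD, n = 5 each), with overlapping ranges. The cluster as a whole averaged 9.79 ± 2.53 CPM in PiZ mice against 6.01 ± 2.58 CPM in WT mice (SD, n = 5 each), and 3 of 5 PiZ mice lay above all WT mice (5 of 5 with TMM scaling, as for 6.55% of single names). Of its 350 PiZ reads, 222 were again of miR-295-3p. In the pooled reads of a genotype, miR-295-3p was 63.4% of the cluster in PiZ (95% exact binomial interval 58.1 to 68.5) and 38.5% in WT mice (30.1 to 47.4). miR-292b-5p was 18.3% in PiZ (14.4 to 22.7) and 47.7% in WT mice (38.9 to 56.6). In WT liver their order differed by mouse: miR-292b-5p had more reads than miR-295-3p in WT mice 1, 3 and 5, and fewer in WT mice 2 and 4. The intervals of these pooled shares treat reads as independent and leave out the spread between mice. PiZ mouse 3 gave 129 of the 350 PiZ reads, and WT mouse 5 gave 70 of the 130 WT reads. With miR-295-3p chosen as higher in PiZ, no difference between genotypes is read from these shares.

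The technical runs of a library give a second reading of the same RNA. miR-295-3p had reads in both runs of 9 of 10 mice. In 8 mice it had enough reads, at least 4, for the split between runs to depart from the depth of the runs, and in 7 of these the share of the library in run 1 lay within the 95% exact binomial interval of the share of its reads. WT mouse 4 was apart, with 1 read in run 1 and 13 in run 2, a share of 7.14% (interval 0.181 to 33.9) where run 1 held 49.6% of that library. In the plot of the runs this mouse lies far off the diagonal, at 0.286 CPM in run 1 and 3.66 CPM in run 2. In run 2 alone the log2 fold change of miR-295-3p was 1.06 (SE 0.37, edgeR) and in run 1 alone 1.89 (SE 0.67).

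**Figure D3:**
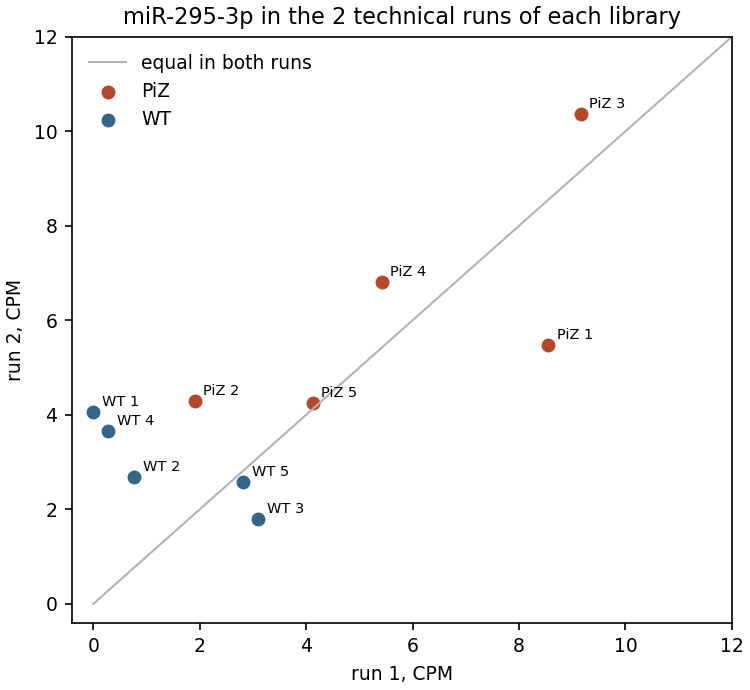
miR-295-3p in run 1 (horizontal axis) and run 2 (vertical axis) of each library, in reads per 1000000 reads of the run, with the line of equality. PiZ mouse 3 is high in both runs (9.16 and 10.4 CPM), and WT mouse 4 is low in run 1 and not in run 2.

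By mean level, miR-295-3p ranked 277 of the 880 names listed in every file, miR-292b-5p 307 and miR-294-3p 381. Levels of different miRNAs are compared as reads of mature miRNAs of near-equal length. No correction was made for how well each sequence enters a library, so these are ranks and ratios of reads. The miR-17-5p relatives with the shifted seed (miR-17-5p, miR-20a-5p, miR-20b-5p, miR-93-5p, miR-106a-5p and miR-106b-5p), known for growth control in adult tissues, averaged 572 ± 62.2 CPM together in PiZ mice against 639.8 ± 106.2 CPM in WT mice (SD, n = 5 each). That was 94.5 times the mean of miR-295-3p in PiZ and 310 times in WT liver. These ratios differ mostly through miR-295-3p, chosen as higher in PiZ, so nothing is read from their gap. Of 3 tested members of this group none passed at an adjusted p of 0.05 in edgeR, where 9.23% of all names did so in either direction, and their median log2 fold change was -0.14 against 0.07 over all names tested. Its most abundant member, miR-93-5p, averaged 351 ± 26.1 CPM in PiZ mice against 407 ± 127 CPM in WT mice (SD, n = 5 each).

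Other miRNAs of the embryo or germline were read beside miR-295-3p. The miR-302 and miR-367 cluster, the other stem cell cluster, had 6 names, all listed at 0 in the 5 mice of the longer list and not listed for the rest. The miR-297, miR-466, miR-467 and miR-669 names of the Sfmbt2 cluster, known from embryo and placenta, had reads for 31 of 50 names and summed to 10.3 to 15.4 CPM in PiZ and 9.80 to 15.1 CPM in WT mice. Its 1 tested name, miR-467a-5p, had a log2 fold change of -0.07 (SE 0.42, edgeR) and did not pass. The 5p arms of miR-467a to miR-467e overlapped between genotypes too, at 3.29 to 4.99 CPM in PiZ and 2.41 to 5.89 CPM in WT mice. The X-linked cluster known from the male germline had lower values in PiZ mice: its 25 names summed to 0 to 1.23 CPM in PiZ and 3.98 to 21.4 CPM in WT mice, without overlap, where 1.79% of single names tested had all PiZ below all WT mice. Its 1 tested name, miR-871-3p, was lower in PiZ in edgeR, with 2 reads in PiZ and 54 in WT mice, 1 of the 3 names (0.893% of 336) called lower. These lists hold different names in the longer and the shorter files, so their sums are compared as ranges. The plot of related lists shows them beside miR-295-3p.

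**Figure D4:**
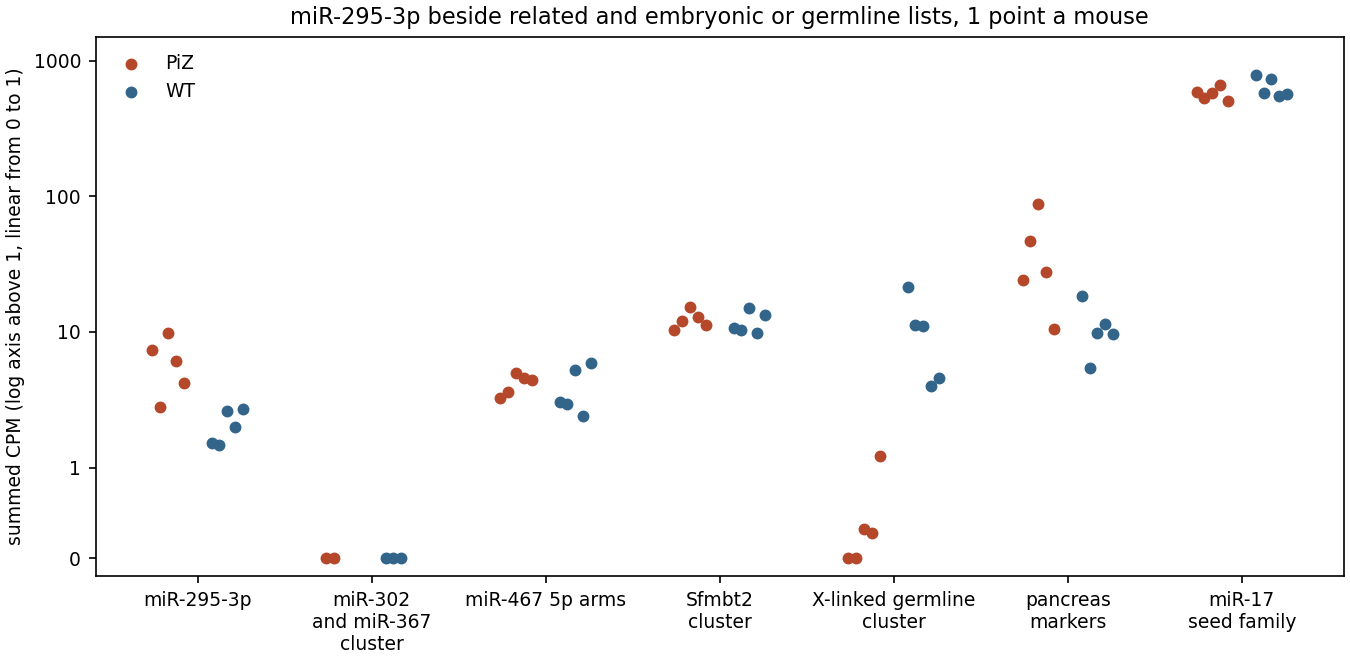
Level of miR-295-3p and summed level of related or embryonic, germline and pancreas lists in each mouse (reads per 1000000 library reads; the axis is logarithmic above 1 and linear from 0 to 1), with 1 point per mouse that lists any of the names. The miR-302 and miR-367 points lie at 0, the X-linked germline points are lower in PiZ mice, and the miR-17 seed family lies at 500 to 778 CPM in both genotypes.

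Markers of other cells moved with genotype in part. The pancreas list (miR-216a-5p, miR-216b-5p, miR-217-5p and miR-375-3p, 4 of 4 detected) summed to 10.4 to 87.6 CPM in PiZ and 5.39 to 18.4 CPM in WT mice. Of its members, miR-217-5p and miR-216b-5p rose in PiZ in edgeR, 2 of 4 where 8.33% of all names did, and PiZ mouse 3, the highest for miR-295-3p, was the highest for both (12.9 and 46.9 CPM). PiZ mouse 5, with 4.19 CPM of miR-295-3p, had 1.13 CPM of miR-216b-5p and no read of miR-217-5p. PiZ mouse 2 went the other way. It was the lowest PiZ mouse for miR-295-3p (2.79 CPM), yet had 21.9 CPM of miR-216b-5p and 5.18 CPM of miR-217-5p. Both values were above those of PiZ mice 1, 4 and 5. The other members did not pass: miR-216a-5p had a log2 fold change of 4.12 (SE 1.20, adjusted p = 0.0579, edgeR) and miR-375-3p of -0.08 (SE 0.37, adjusted p = 0.932, edgeR). The immune list (miR-142-5p, miR-150-5p and miR-223-3p) summed to 1575 to 2496 CPM in PiZ and 682 to 1683 CPM in WT mice, and 0 of 3 passed, where 9.23% of all names did in either direction. Their median log2 fold change was 0.77 against 0.07 over all names tested, with miR-142-5p at 1.03 (SE 0.49, adjusted p = 0.216, edgeR) and miR-223-3p at 0.77 (SE 0.23, adjusted p = 0.0632, edgeR). The muscle list (miR-1a-3p, miR-133a-3p and miR-206-3p) summed to 70.3 CPM in PiZ mouse 4. It summed to 0 to 2.47 CPM in the other PiZ mice and 0 to 2.29 CPM in WT mice. None of its names was among those tested. The germline list summed to 82.4 to 5861 CPM in PiZ and 20.6 to 38.3 CPM in WT mice, nearly all of it miR-34c-5p (116734 of 116810 reads), which was called higher. Its other 4 names had fewer reads in PiZ than in WT mice: miR-871-3p 2 and 54, miR-881-3p 1 and 15, miR-741-3p 1 and 3, and miR-880-3p 0 and 1. Of the stem cell markers outside the cluster, 3 were listed, all at 0 and in the 5 longer-list mice alone, where the limit of 1.20 to 2.29 CPM a name is about the WT level of miR-295-3p. The part of these cells in the level of miR-295-3p was not tested.

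The names whose log2 CPM (prior count 2) followed miR-295-3p best over the 10 libraries, among the 336 names tested, were miR-130b-3p (Pearson r = 0.89), miR-300-3p (0.87), miR-582-5p (0.87), miR-1983 (0.87) and miR-421-3p (0.86). All 5 had higher means in PiZ than in WT mice. miR-130b-3p, for one, had means of 14.5 and 5.63 CPM. With miR-295-3p chosen as higher in PiZ and genotype left in the values, such names are favoured, so nothing is read from this. For miR-292b-5p the closest was miR-18a-3p (0.76), and the next, miR-6978-3p, miR-351-5p, miR-484 and miR-361-5p, had r of 0.66 to 0.68. The pair miR-295-3p and miR-292b-5p had r = -0.27. These are descriptions over 10 libraries that share genotype, depth and file set.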

How the data were processed

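The 20 deposited files, 1 per run, hold estimated counts by mature miRNA name, some of them fractional. Frozen livers gave RNA (miRNeasy) for TruSeq small RNA libraries, per the labels' protocols. The submitters' processing notes name CASAVA; the sources used here do not give the aligner, miRBase release, genome build or treatment of reads matching several names. All member counts were whole. Runs were summed by mouse, and sums rounded. CPM are reads per 1000000 reads of all listed names. The 880 names in every file were filtered with filterByExpr (336 kept), scaled by TMM and fitted in edgeR 4.0.16 (quasi-likelihood, file set and genotype, Benjamini-Hochberg, 0.05); SE is the fold change over the square root of F. The fit was also run on simulated counts, without the low-count filter and with most names changed. That setting differs from these data, and no result here rests on it. Values per mouse are given for members with 20 or more reads, lists with their most abundant name, and the 5 names most alike each tested member; miR-216b-5p, miR-217-5p, miR-34c-5p and the strand groups were singled out after their values were seen. Members and lists were chosen with earlier results of these data known. Sequences and positions are RefSeq's and GENCODE's. Alternatives used DESeq2 1.42.0 in R 4.3.3; intervals scipy 1.17.1, plots matplotlib 3.10.9. Mice are separate animals by their labels.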

Additional observations from a re-analysis of the deposited data

How the results depend on the processing

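The log2 fold change of miR-295-3p stayed positive in 20 of 20 alternatives, from 0.93 to 1.89. These reuse the counts by which miR-295-3p was chosen as higher in PiZ, so nothing is read from its kept sign. That of miR-292b-5p stayed negative in 12 of 12, from -0.95 to -0.27, and in others this name did not pass the filter. Where miR-294-3p could be fitted, it ran from 1.18 (SE 0.69, without PiZ mouse 2) to 1.78 (SE 0.70, without WT mouse 1). Leaving out 1 mouse gave 0.93 (without PiZ mouse 1) to 1.57 for miR-295-3p, 8.74 to 10.3 CPM for the PiZ mean of the cluster and 5.22 to 6.90 CPM for the WT mean. The WT mean moved by more than its SD in run 2 alone, to 8.67 CPM, against 4.34 CPM in run 1 alone; the cause was not tested. The PiZ mean stayed within its SD in 10 of 10 alternatives. miR-295-3p had at least 3 reads in 9 mice, miR-294-3p in 6. The longer-list mice alone gave no fit of a member, since none passed the filter there. Leaving out WT mice 1 and 3, alone or with PiZ mouse 5, was added after seeing the data. No paired analysis was possible because the mouse numbers of the genotypes name different animals. Depth limits all members: in WT mice 1 to 3 no member had more than 10 reads.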
